A study of Rattus norvegicus with 69 samples.

Results

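Liver mRNA was compared between rats treated with liraglutide and rats treated with PYY3-36. These were the 2 single hormone treatments of a study that also covered their combination, a saline control, Roux-en-Y gastric bypass surgery and a sham operation. The libraries were chosen by their labels: 5 libraries of the liraglutide group (Lira) and 5 of the PYY3-36 group (PYY), 10 of the 69 libraries in the count table, all of them in batch B. The animals were male Wistar rats, a standard outbred laboratory strain, made obese by a high-fat diet and later offered a choice of high-fat and low-fat food. The liraglutide rats received the drug by injection under the skin and saline from an implanted osmotic minipump, and the PYY3-36 rats received the peptide from the minipump and saline by injection. The livers were taken after an overnight fast. Both groups therefore shared the diets on offer, the pump, the injections and the fast, and differed by design in the hormone, its dose and its route. How much of each food was eaten was left to the rats, so the diet eaten can also have differed between the groups. As background, the 5 saline libraries of batch B (saline from both routes) and the 5 batch B libraries of the combination (PYY_Lira, both hormones) are given beside the 10. The labels number the libraries within a group without saying that each number is a separate animal, so the p-values measure spread between libraries. That spread was pooled within groups over the 55 libraries of 6 groups that were fitted together. The 6 groups were liraglutide, PYY3-36, their combination, saline, gastric bypass and sham operation. The p-values, standard errors and intervals therefore also rest on livers outside the 10. At an unadjusted p under 0.05 there were 861 genes in this fit and 205 when the 10 libraries were fitted alone.

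Liraglutide is a long-acting analogue of glucagon-like peptide 1, a gut hormone that acts through the receptor GLP1R, raises glucose-dependent insulin release and lowers food intake. PYY3-36 is the form of peptide YY that is left after the protease DPP4 removes its first residues, and it lowers food intake mainly through the neuropeptide Y receptor Y2. In the liver, insulin and sterols set the activity of the SREBP transcription factors: SREBP-2, from Srebf2, drives the genes of cholesterol synthesis, and SREBP-1c, from Srebf1, drives the genes of fatty acid synthesis.

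The hormone receptors gave almost no reads in these livers. Glp1r and the neuropeptide Y receptor genes Npy2r, Npy4r and Npy5r were at a count of 0 in all 10 libraries, and Npy1r was at a count of 1 in liraglutide replicate 3 and 6 in PYY3-36 replicate 5 and at 0 in the other 8. The libraries held 12560017 to 26765063 counts, so an upper limit of 3 counts per library lay far below 1 CPM, the unit of all levels given here (counts per library total after TMM scaling, whose factors ran from 0.626 in liraglutide replicate 4 to 1.23 in liraglutide replicate 2). The glucagon receptor Gcgr, which was measured well, was at 212, 476, 205, 139 and 150.2 CPM in liraglutide replicates 1 to 5 and 162, 263, 186, 283 and 133 CPM in PYY3-36 replicates 1 to 5. Its groups overlapped, and its log2 fold change was 0.20 (95% interval -0.38 to 0.78). Dpp4, the protease that makes PYY3-36, had a log2 fold change of -0.06 (95% interval -0.37 to 0.25). Of the 10 members of the list of gut hormone receptors and peptidases that could be tested, Ramp1, a partner protein of the calcitonin-like receptor, alone had an unadjusted p under 0.05 (log2 fold change 0.76 ± 0.31, SE). Over all genes tested, 2.67% had such a p with a positive log2 fold change.

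Across the whole transcriptome no gene passed the test. With edgeR's quasi-likelihood test, 0 of 16508 genes (0%) had a Benjamini-Hochberg adjusted p under 0.05, and the smallest adjusted p was 0.220. All fold changes are liraglutide minus PYY3-36 on the log2 scale, so a positive value stands for a higher level after liraglutide. At an unadjusted p under 0.05 there were 441 genes with a positive log2 fold change (2.67%) and 420 with a negative one (2.54%). The 5 liraglutide libraries lay above all 5 PYY3-36 libraries in 47 genes (0.285%) and below them in 27 (0.164%). The median log2 fold change over all genes was -0.007, and the 95% interval of a gene reached a median of 0.67 to either side of its log2 fold change, so a smaller difference could not be placed for a typical gene. DESeq2 called 4 genes in the same comparison (Abcb1b, Igfbp2, Irx5 and Ddhd1), limma-voom with sample quality weights called 1 (LOC103694214), and both tools gave similar numbers at an unadjusted p under 0.05 (923 and 970). Irx5 and LOC103694214 were named after their values were seen.

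A pair of libraries lay farthest from the rest of the 10. On the first principal component of the 10 libraries, which held 60.4% of the variance, liraglutide replicate 4 was at 122.1 and PYY3-36 replicate 5 at 151.5, liraglutide replicate 5 at 32.2 and the other 7 between -69.1 and -21.6. There was 1 such library in each group, and in exact two-sided permutation tests of 7 library properties (depth, genes detected, share of the 10 most abundant genes, mitochondrial share, scaling factor, first component and distance from the own group) no difference between the groups was detected (Benjamini-Hochberg adjusted p = 0.952 for each). All 10 libraries were liver by their markers: albumin (Alb) took 6.31% to 23.4% of the counts of a library, the highest share in liraglutide replicate 4. On the first component of all 55 libraries of the fit, the combination replicates 8, 11 and 9 stood near this pair (149, 113 and 104, against 139 and 157), and saline replicate 9 (72.4) near liraglutide replicate 5 (70.8), while the other 13 batch B libraries of the 4 groups lay between 0.377 and 20.4. So 3 of the 5 combination libraries set beside the values below stand with the pair. Values without both libraries of the pair are given below beside the genes they touch. Liraglutide replicate 2 stays in those values. Its distance from its own group (1.01 on the log2 scale) came next after PYY3-36 replicate 5 (1.56) and liraglutide replicate 4 (1.28), while the other 7 lay between 0.586 and 0.661. In bulk tissue, a lower level can come from fewer cells of a type or from less RNA per cell, which cannot be told apart here.

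Genes of cholesterol synthesis stood at higher levels in the liraglutide libraries. All 20 listed enzymes of the pathway had a positive log2 fold change, against 49% of all genes tested (51% were negative), with a median of 0.81 and a highest value of 2.58. For 13 of the 20 the unadjusted p was under 0.05, against 2.67% of all genes in that direction, and for 4 of the 20 (Sqle, Msmo1, Tm7sf2 and Mvd) all 5 liraglutide libraries lay above all 5 PYY3-36 libraries, against 0.285% of all genes. None of the 20 passed the adjusted threshold. Against saline, the median log2 fold change of the same 20 genes was 0.55 for liraglutide, with 20 positive and 8 at an unadjusted p under 0.05 (3.82% of all genes in that direction), and -0.28 for PYY3-36, with 1 positive and 0 such members above saline (2.27% of all genes). Both of these comparisons share their saline libraries, which in the fit are those of both batches, while the saline levels given by library are those of batch B. Per the study, some saline and some combination rats were fed for a longer period, and the labels do not mark their libraries.

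The regions upstream of the members with separate groups are shown here because members that stand together can be compared at their start sites. Of the 20 enzymes 15 had an entry in the RefSeq promoter table (build GRCr8, which is not the build of the counts), and of the members with separate groups Msmo1, Tm7sf2, Mvd and, from fatty acid synthesis, Acly had one. The 250 bases before the start site are printed 5′ to 3′ on the strand of the gene, and capitals mark the CCAAT box, a binding sequence of the factor NF-Y, or its reverse complement ATTGG.
Msmo1 (chr16:29746863-29747112, plus strand): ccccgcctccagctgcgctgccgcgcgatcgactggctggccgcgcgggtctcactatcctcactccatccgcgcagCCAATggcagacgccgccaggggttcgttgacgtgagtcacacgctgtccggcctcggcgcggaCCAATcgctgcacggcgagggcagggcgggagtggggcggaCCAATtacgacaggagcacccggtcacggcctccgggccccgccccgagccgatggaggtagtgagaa
Tm7sf2 (chr1:212789542-212789791, minus strand): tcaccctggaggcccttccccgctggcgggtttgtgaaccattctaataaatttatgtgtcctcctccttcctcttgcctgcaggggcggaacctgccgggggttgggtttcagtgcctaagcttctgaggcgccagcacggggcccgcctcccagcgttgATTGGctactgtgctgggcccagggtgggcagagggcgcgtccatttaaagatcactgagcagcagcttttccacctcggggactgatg
Mvd (chr19:67414975-67415224, minus strand): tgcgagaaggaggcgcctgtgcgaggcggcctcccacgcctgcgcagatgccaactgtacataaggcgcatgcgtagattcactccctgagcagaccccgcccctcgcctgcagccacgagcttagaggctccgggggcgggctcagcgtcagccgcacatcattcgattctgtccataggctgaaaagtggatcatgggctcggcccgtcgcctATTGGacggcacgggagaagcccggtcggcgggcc
Acly (chr10:85963632-85963881, minus strand): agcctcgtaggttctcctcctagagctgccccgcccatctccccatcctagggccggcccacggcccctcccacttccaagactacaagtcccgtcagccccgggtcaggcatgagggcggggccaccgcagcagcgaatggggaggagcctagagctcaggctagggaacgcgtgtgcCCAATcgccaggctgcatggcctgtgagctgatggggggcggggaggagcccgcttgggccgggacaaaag
Msmo1 held 3 CCAAT boxes, which ended 168, 104 and 63 bases before the start site, and each of the others held 1, ending 84 bases before the start site in Tm7sf2, 30 in Mvd and 66 in Acly. Searched on both strands, the 5 letters were found in 12 of 15 cholesterol synthesis promoters (80%) and 10 of 17 fatty acid synthesis promoters (58.8%), against 34.3% of all 27457 promoters in the table. The sterol response element in the form TCACNCCAC was found in 0.976% of all promoters and in 0 of the 15 and 0 of the 17, so no CCAAT box overlapped one in these lists. A match is a stretch of letters in this window and no measurement of binding.

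Sqle (gene ID 29230, chromosome 7, 99609929 to 99624803 on Rnor_6.0), the squalene epoxidase that makes the first oxygenated intermediate of the pathway, had the largest log2 fold change of the 20. It was at 16.4, 8.86, 12.9, 20.7 and 39.6 CPM in liraglutide replicates 1 to 5 and at 6.22, 2.83, 3.15, 3.01 and 1.2 CPM in PYY3-36 replicates 1 to 5. The lowest liraglutide library lay above the highest PYY3-36 library. The log2 fold change was 2.58 ± 0.73 (SE, 95% interval 1.11 to 4.06, unadjusted p = 0.00091, edgeR adjusted p = 0.578), and 2.37 without the pair of libraries that lay apart. The batch B saline libraries were at 5.31, 2.06, 9.41, 2.25 and 11.5 CPM and the combination libraries at 28.4, 10.1, 28.5, 30.1 and 12.8 CPM. The saline values overlapped both ranges, and the combination values lay in the liraglutide range.

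Msmo1 (gene ID 140910, chromosome 16, 26859441 to 26875880), a methyl sterol oxidase of the late pathway, was at 42.5, 28.9, 56.2, 86.5 and 99.8 CPM in the liraglutide libraries and at 23.8, 15.8, 16.7, 15 and 16.1 CPM in the PYY3-36 libraries. Of the latter, 4 lay within 15 to 16.7 CPM and replicate 1 stood apart at 23.8, still below every liraglutide library. Its log2 fold change was 1.85 ± 0.51 (SE), with 1.12 for liraglutide against saline and -0.72 for PYY3-36 against saline. Tm7sf2 (gene ID 293688, chromosome 1, 221426017 to 221430340), a sterol C14 reductase, was at 52.3, 37.7, 55.2, 53.1 and 81.1 CPM after liraglutide and 36.9, 22.9, 21.4, 19.6 and 10.7 CPM after PYY3-36. The highest PYY3-36 library, at 36.9 CPM, came within 1 CPM of the lowest liraglutide library. All 5 saline libraries lay between 17 and 23.8 CPM, and the log2 fold change against saline was 1.27 for liraglutide and -0.06 for PYY3-36. Mvd (gene ID 81726, chromosome 19, 55258910 to 55268933), which decarboxylates mevalonate diphosphate, was at 6.3, 6.99, 8.29, 18.3 and 10.1 CPM against 4.33, 3.32, 2.89, 3.47 and 5.92 CPM, a log2 fold change of 1.33 ± 0.47 (SE).

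**Figure D1:**
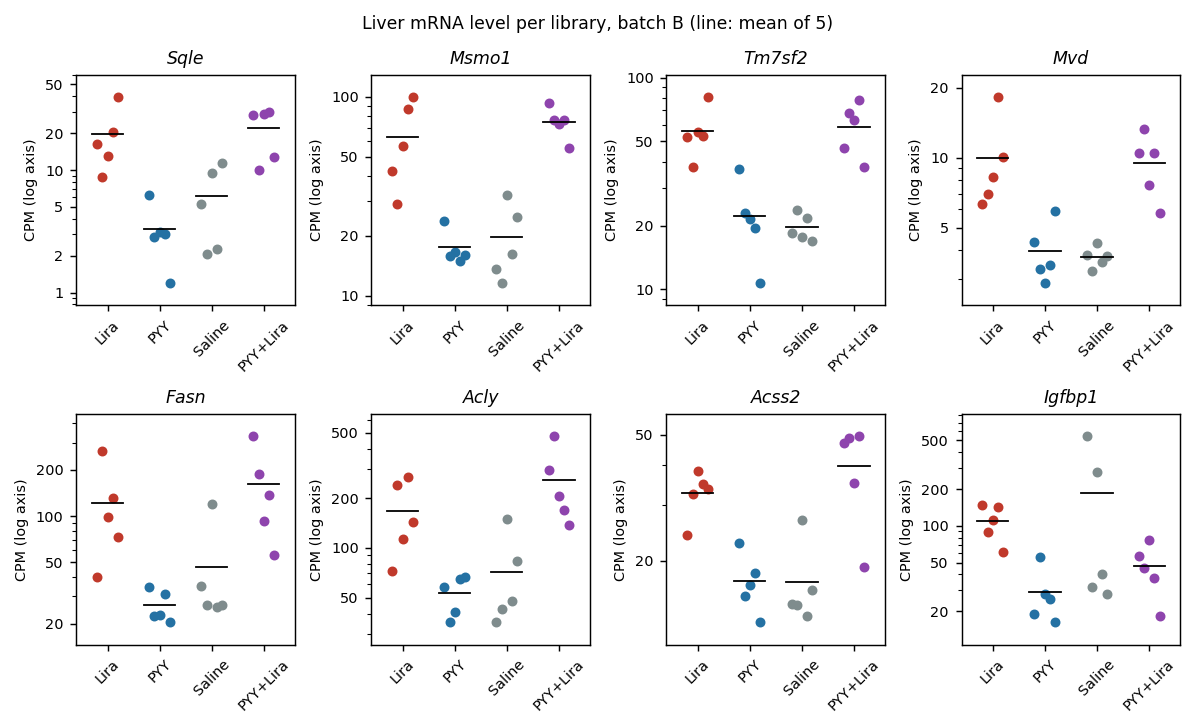
Level in CPM on log axes of 8 genes in each batch B library of liraglutide (Lira), PYY3-36 (PYY), saline and the combination (PYY+Lira), with a line at the mean of 5. All 8 genes shown belong to the 47 (0.285% of all genes tested) in which every Lira point lies above every PYY point, so the separation in the panels is no further result. For Sqle the Lira points sit between 8.86 and 39.6 CPM and the PYY points between 1.2 and 6.22 CPM.

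Other enzymes of the pathway differed less cleanly. Fdps, which makes farnesyl diphosphate, was at 129, 153, 207, 631 and 346 CPM after liraglutide and 133, 60.7, 80.3, 50.2 and 93.9 CPM after PYY3-36, so PYY3-36 replicate 1 lay above liraglutide replicate 1. Its log2 fold change was 1.81, and 1.37 without the libraries that lay apart. Cyp51, the lanosterol demethylase, had a log2 fold change of 1.38 ± 0.42 (SE), with PYY3-36 replicate 1 again the highest of its group at 68.5 CPM. Hmgcs1, an enzyme of the early pathway, had a log2 fold change of 0.45 (95% interval -0.45 to 1.34), 0.22 without liraglutide replicate 5 and 0.71 without PYY3-36 replicate 5.

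As a mean over its 20 members on the log2 scale, the cholesterol synthesis list had separate groups, and as a sum of CPM it did not. The mean log2 CPM of the members was 5.11, 4.89, 5.29, 5.48 and 5.64 in liraglutide replicates 1 to 5 (5.28 ± 0.30, SD, n = 5) and 4.75, 4.12, 4.35, 4.20 and 4.07 in PYY3-36 replicates 1 to 5 (4.30 ± 0.28, SD, n = 5). The saline libraries of batch B lay between 4.14 and 4.82 and the combination libraries between 5.11 and 5.77. On this scale each liraglutide and each combination library lay above the highest saline and the highest PYY3-36 library. The summed level, which the most abundant members weigh most, was 1660, 1302, 1707, 2831 and 2551 CPM in liraglutide replicates 1 to 5 and 1544, 941, 1033, 1015 and 1241 CPM in PYY3-36 replicates 1 to 5, with 996 to 1467 CPM in saline. Liraglutide replicate 2 lay below PYY3-36 replicate 1 and below the highest saline library in this sum. When the pair of libraries that lay apart was left out, the median log2 fold change was 0.75 with 20 of 20 positive. In that setting 10 members had an unadjusted p under 0.05, against 1.91% of all genes in that direction. Of the 20 members 6 (Sqle, Msmo1, Tm7sf2, Mvd, Lss and Acat2) had separate groups of 4, against 1.31% of all genes. Lss and Acat2 were named after their values were seen.

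**Figure D2:**
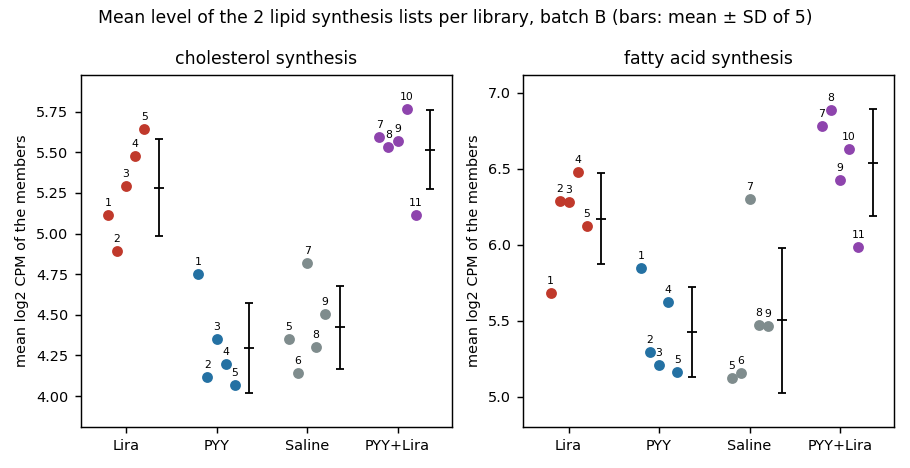
Mean log2 CPM of the members of the cholesterol synthesis list (20 genes, left) and the fatty acid synthesis list (22 genes, right) in each batch B library, numbered by replicate, with the mean ± SD of 5 beside each group. On the left the Lira points start at 4.89 and the PYY points end at 4.75, and on the right Lira replicate 1 at 5.68 lies below PYY replicate 1 at 5.85.

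The regulators of the pathway were mixed. Of 12 tested genes of SREBP-2 control and lipoprotein uptake, 8 had a positive log2 fold change (median 0.25, against 49% positive over all genes) and 4 an unadjusted p under 0.05, all positive (2.67% of all genes). Without 1 library the median ran from 0.15 to 0.38. The 4 became 2 without liraglutide replicate 4 (2.31% of all genes) or without PYY3-36 replicate 4 (2.25%). They became 1 without the pair that lay apart (1.91%) and 0 with limma-voom (median 0.16, 3.26% of all genes). Srebf2 was at 31.3, 32.9, 42.1, 45.5 and 39.1 CPM against 32.5, 28.9, 27.4, 22.7 and 19.7 CPM, a log2 fold change of 0.54 ± 0.19 (SE) with overlapping groups. Insig1, which holds the SREBPs in the endoplasmic reticulum and is itself an SREBP target, was at 35.5, 60.4, 49.7, 154 and 65.6 CPM against 39.9, 15.3, 23.5, 12.2 and 30.1 CPM, with a 95% interval of 0.20 to 2.99 for its log2 fold change.

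Genes of fatty acid synthesis also stood higher after liraglutide, with more variation between libraries. Of 22 tested members, 19 had a positive log2 fold change (median 0.61), 7 had an unadjusted p under 0.05, all positive (2.67% of all genes), and 2 (Fasn and Acly) had separate groups (0.285% of all genes), while none passed the adjusted threshold. The median was 0.29 without liraglutide replicate 2, 0.33 without liraglutide replicate 4 and 0.48 without the pair that lay apart. With limma-voom it was 0.41, with 16 of 22 positive and 3 at an unadjusted p under 0.05 (3.26% of all genes). Against saline the median was 0.60 for liraglutide and 0.02 for PYY3-36.

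Fasn (gene ID 50671, chromosome 10, 109987735 to 110005901), the fatty acid synthase, was at 40.4, 264, 98, 132 and 73.4 CPM in the liraglutide libraries and at 34.5, 22.5, 22.8, 31.2 and 20.4 CPM in the PYY3-36 libraries. The PYY3-36 libraries were close together and the liraglutide libraries spread widely, with replicate 1 just above the PYY3-36 range and replicate 2 far above it. The log2 fold change was 2.21 ± 0.72 (SE, unadjusted p = 0.00349, edgeR adjusted p = 0.792), and 1.72 without liraglutide replicate 2. In the saline group 4 libraries lay between 25.7 and 35.3 CPM and saline replicate 7 was at 120.3 CPM. Acly (gene ID 24159, chromosome 10, 88392248 to 88442845), which makes cytosolic acetyl-CoA from citrate, was at 72, 243, 113, 269 and 144 CPM against 58, 35.4, 41, 65 and 66.6 CPM, a log2 fold change of 1.66 ± 0.51 (SE). The combination libraries, at 295, 477, 206, 170.4 and 137 CPM, all lay above the highest PYY3-36 library.

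Pnpla3, a lipid droplet acyltransferase and lipase that SREBP-1c controls, had the largest log2 fold change of the list, 4.54 ± 1.42 (SE), and 3.59 without the pair that lay apart. It was at 4.16, 48.3, 24, 159.5 and 25.5 CPM after liraglutide and 4.53, 0.607, 1.84, 1.73 and 2.68 CPM after PYY3-36, and liraglutide replicate 1 lay within the PYY3-36 range. Me1, the malic enzyme that supplies NADPH, was at 26.9, 31.5, 29.3, 94.8 and 43.9 CPM against 21, 14.4, 12.8, 15.3 and 27.7 CPM (log2 fold change 1.31, and 0.87 without liraglutide replicate 4), with liraglutide replicate 1 below PYY3-36 replicate 5. Fads2, a desaturase of polyunsaturated fatty acids, had a log2 fold change of 1.31, and 0.81 without liraglutide replicate 4, with 836 CPM in liraglutide replicate 4 and 309 CPM in PYY3-36 replicate 1, and Thrsp, a lipogenic nuclear protein, one of 1.11.

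Scd and Srebf1 had intervals that reached 0. Scd, the stearoyl-CoA desaturase, was at 879, 748, 1643, 1214 and 1382 CPM after liraglutide and 2195, 706, 314, 1229.8 and 1409 CPM after PYY3-36, a log2 fold change of 0.00 (95% interval -1.56 to 1.57). The interval was wide, and the PYY3-36 libraries ranged from 314 to 2195 CPM. Srebf1 had a log2 fold change of 0.39 (95% interval -0.33 to 1.11), and 0.15 without liraglutide replicate 2. Acss2, which activates acetate to acetyl-CoA, and Pnpla5, a relative of Pnpla3, were outside the fixed lists and were picked after their values were seen because their groups did not overlap. Acss2 was at 24.1, 32.4, 38.4, 34.9 and 33.6 CPM against 22.7, 15.5, 16.8, 18.3 and 12.8 CPM, and Pnpla5 at 12.9, 12.3, 30.7, 32.7 and 18.1 CPM against 4.06, 0.324, 0, 6.37 and 0.282 CPM.

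Genes of lipid droplet proteins had no common direction. Of 17 tested members 9 had a positive log2 fold change (median 0.02) and 0 had separate groups. In each direction 1 had an unadjusted p under 0.05 (2.67% of all genes positive and 2.54% negative). Plin3 (gene ID 316130, chromosome 9, 10769739 to 10781659), a perilipin that coats small droplets, was at 20.1, 15.8, 14.6, 44.1 and 23.4 CPM after liraglutide and 9.95, 6.71, 9.46, 10.2 and 18 CPM after PYY3-36. The groups overlapped through PYY3-36 replicate 5, and the log2 fold change was 1.12 ± 0.27 (SE, edgeR adjusted p = 0.325), against saline 1.17 for liraglutide and 0.05 for PYY3-36. Plin2, the main hepatocyte perilipin, had a log2 fold change of 0.18 (95% interval -0.55 to 0.91), and Cidec, which promotes droplet fusion, one of -0.23 (95% interval -0.73 to 0.28). Cidea, a relative of Cidec, was at 0.983, 0.388, 1.26, 2.59 and 0.936 CPM against 4.6, 1.62, 6.72, 1.17 and 1.27 CPM, a log2 fold change of -1.33 ± 0.64 (SE), and -0.81 without PYY3-36 replicate 3. Fatty acid oxidation, ketogenesis and PPARalpha targets had 0 of 32 members with an unadjusted p under 0.05 and a median of -0.11.

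The genes that join cholesterol to bile went in both directions. Cyp7a1 (gene ID 25428, chromosome 5, 19358734 to 19368431), the rate-limiting enzyme of bile acid synthesis, was at 66.5, 35.3, 47.5, 351 and 160.2 CPM after liraglutide and 4.67, 34.3, 8.83, 34.5 and 71.3 CPM after PYY3-36, a log2 fold change of 2.11 ± 0.85 (SE), and 1.35 without liraglutide replicate 4. The groups overlapped through PYY3-36 replicate 5 at 71.3 CPM. Nr0b2, the repressor SHP that acts on Cyp7a1, was at 26.8, 11.3, 22.6, 31.5 and 30.5 CPM against 122, 87.6, 49.6, 66.9 and 21.1 CPM, a log2 fold change of -1.50 ± 0.56 (SE), and here PYY3-36 replicate 5 was the only one of its group inside the liraglutide range. Without the pair that lay apart both genes had separate groups of 4, with liraglutide above for Cyp7a1 (1.31% of all genes) and below for Nr0b2 (0.769% of all genes). Abcg5, a subunit of the sterol exporter of hepatocytes, was at 6.71, 8.99, 10.8, 13.5 and 6.96 CPM against 13.3, 20.3, 30.4, 9.23 and 35 CPM (log2 fold change -1.20 ± 0.42, SE). Over all 21 tested members of the bile acid list the median was -0.10. At an unadjusted p under 0.05 there were 1 positive and 2 negative members (2.67% and 2.54% of all genes).

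The list of gluconeogenesis, glycolysis and insulin signalling had a median of 0.02 over 27 genes, with 15 positive. In it 1 member had all liraglutide libraries above all PYY3-36 libraries (0.285% of all genes) and 1 had them below (0.164% of all genes). Igfbp1 (gene ID 25685, chromosome 14, 87448716 to 87453783), a secreted carrier of insulin-like growth factors that insulin represses in liver, was at 147, 89.7, 111, 143 and 61.4 CPM after liraglutide and 18.8, 55.1, 27.8, 25.3 and 16.2 CPM after PYY3-36, with separate groups and a log2 fold change of 1.94 ± 0.86 (SE). The saline libraries, at 542, 31.5, 278, 40.3 and 27.6 CPM, reached from within the PYY3-36 range to far above the liraglutide range, and against saline the log2 fold change was -0.12 for liraglutide and -2.06 for PYY3-36. Irs3, an insulin receptor substrate found in rodents, outside the list and picked after its values were seen, was at 4.16, 4.01, 4.14, 5.63 and 5.73 CPM against 2.91, 1.46, 0.998, 1.22 and 0.494 CPM (log2 fold change 1.74 ± 0.55, SE). Pik3r1, the regulatory subunit of the kinase downstream of the insulin receptor, had all 5 liraglutide libraries below the PYY3-36 libraries, 38.7, 52.4, 45.9, 44.3 and 46.5 CPM against 58.1, 58.5, 65.4, 53.5 and 94.9 CPM, with a log2 fold change of -0.54 ± 0.24 (SE), and -0.35 without the pair that lay apart.

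Ppp1r3g (gene ID 291069, chromosome 17, 29566032 to 29570294), a subunit that directs protein phosphatase 1 to glycogen, was at 8.79, 21.1, 14.3, 2.15 and 3.86 CPM in the liraglutide libraries and 1.15, 1.29, 2.68, 0.306 and 0.423 CPM in the PYY3-36 libraries. Only liraglutide replicate 4 lay below the highest PYY3-36 library. The log2 fold change was 3.08 ± 0.75 (SE, edgeR adjusted p = 0.325) and 3.14 without the pair that lay apart. It was the single member of 14 glycogen genes with an unadjusted p under 0.05 (2.67% of all genes in that direction). The list had a median of 0.08. Ddhd1 (gene ID 305816, chromosome 15, 19963639 to 20032263), a phospholipase, had separate groups at 11.6, 37.9, 16.7, 35.5 and 11.1 CPM against 6.49, 2.83, 8.04, 5.1 and 5.57 CPM, with a log2 fold change of 2.01 ± 0.47 (SE). Fabp5, a fatty acid binding protein, was at 25.6, 21.3, 25.4, 77.5 and 23.2 CPM against 14.5, 4.93, 8.04, 12 and 8.46 CPM, also separate, with 77.5 CPM in liraglutide replicate 4.

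**Figure D3:**
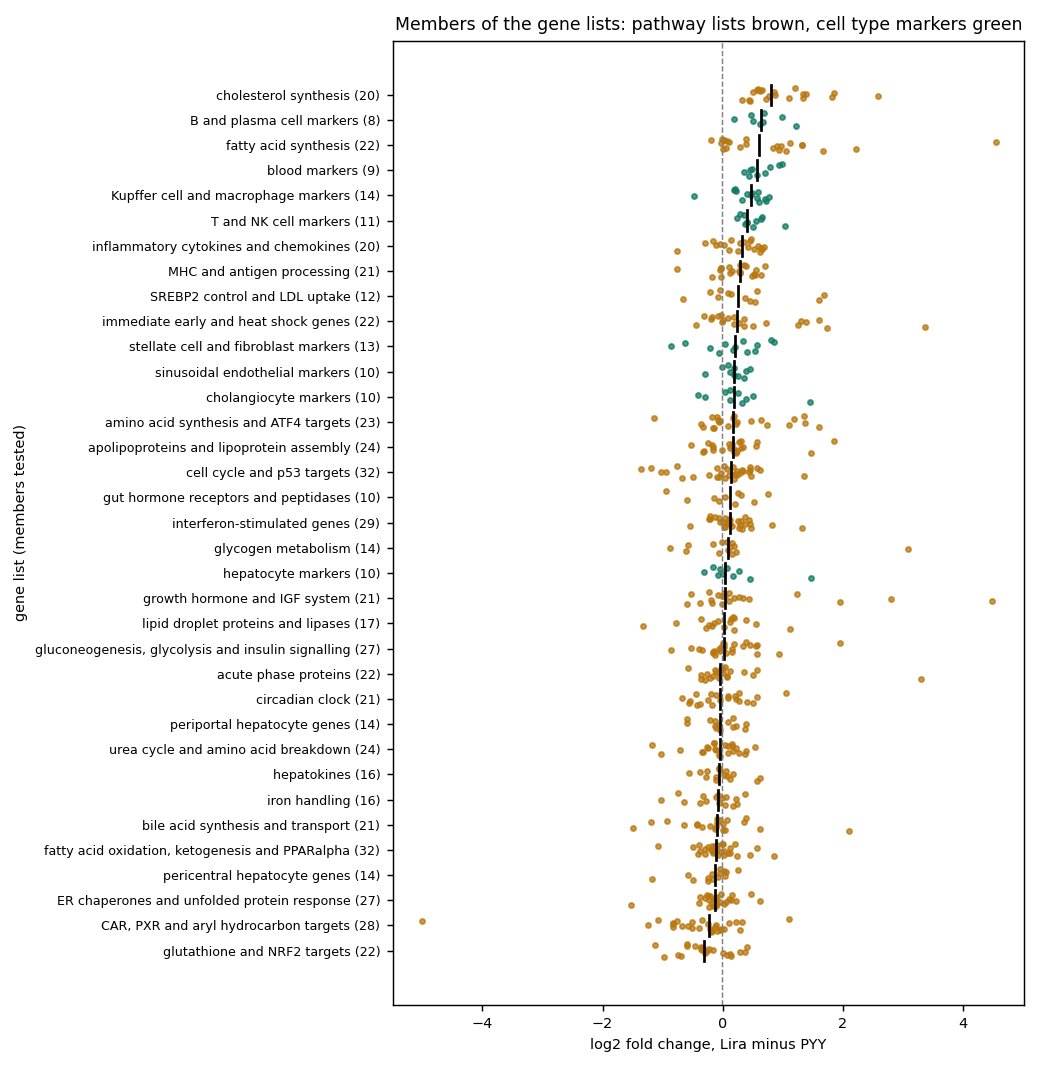
Log2 fold change, liraglutide minus PYY3-36 (horizontal axis), of each tested member (points) of the pathway lists (brown) and cell type marker lists (green) with at least 8 members tested, with the list median as a black bar and the median of all genes as a dashed line. The cholesterol synthesis list lies at the top with a median of 0.81 and all 20 points to the right of 0, and the fatty acid synthesis list, with 0.61, lies just below the B and plasma cell markers.

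On the other side, 27 genes had all liraglutide libraries below all PYY3-36 libraries. Irf2 (gene ID 290749, chromosome 16, 48582354 to 48732129), an interferon regulatory factor, was at 16.7, 14.1, 18.2, 9.92 and 16.8 CPM after liraglutide and 23.4, 20.8, 25.8, 24 and 56.7 CPM after PYY3-36, a log2 fold change of -0.99 ± 0.25 (SE), and -0.62 without PYY3-36 replicate 5. Hes1, a target of Notch signalling picked after its values were seen, was at 19.3, 11.1, 8.49, 15.1 and 13.9 CPM against 23.2, 21.7, 20, 30.1 and 42 CPM (log2 fold change -1.01). Hlf, a clock-controlled transcription factor, was at 18.9, 13.7, 29, 21.6 and 24.7 CPM against 31.3, 43, 26, 33.7 and 38.8 CPM with overlap, a log2 fold change of -0.68 ± 0.23 (SE).

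Several of the largest fold changes came from single libraries. Abcb1b (gene ID 24646, chromosome 4, 22225123 to 22307577), a multidrug transporter, had the smallest p of all genes and a log2 fold change of -5.01 ± 1.04 (SE, edgeR adjusted p = 0.22). It was at 12.7, 2.26, 3.49, 1.04 and 2.87 CPM after liraglutide and 5.01, 20.9, 5.1, 14.3 and 682 CPM after PYY3-36, and without PYY3-36 replicate 5 the log2 fold change was -1.33. Igfbp2 (gene ID 25662, chromosome 9, 80118029 to 80144804), another carrier of the same growth factors, was at 1.91, 1.68, 4.6, 296 and 3.16 CPM against 2.5, 1.58, 3.73, 0.918 and 5.15 CPM. Its log2 fold change of 4.48 was 0.08 without liraglutide replicate 4. It was also the only gene that edgeR called in liraglutide against saline (log2 fold change 5.35), with the same liraglutide library far above the others.

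A2m, an acute phase protease inhibitor of the rat, was at 134 CPM in liraglutide replicate 4 and between 1.9 and 4.49 CPM in the other 9 libraries, and its log2 fold change was 3.30 with that library and 0.01 without it. Apoa1, the main protein of high-density lipoprotein, was at 20675 CPM in liraglutide replicate 4 and between 1519 and 3704 CPM in the other 9, with log2 fold changes of 1.47 and 0.22. In PYY3-36 replicate 5, Tank, an adaptor of innate immune signalling, was at 152 CPM, Dhx9, an RNA helicase, at 120.1 CPM and Dnajb9, a chaperone of the endoplasmic reticulum, at 309 CPM. The log2 fold change without that library was 0.24 for Tank (from -1.94), -0.50 for Dhx9 (from -1.87) and 0.59 for Dnajb9 (from -1.53).

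**Figure D4:**
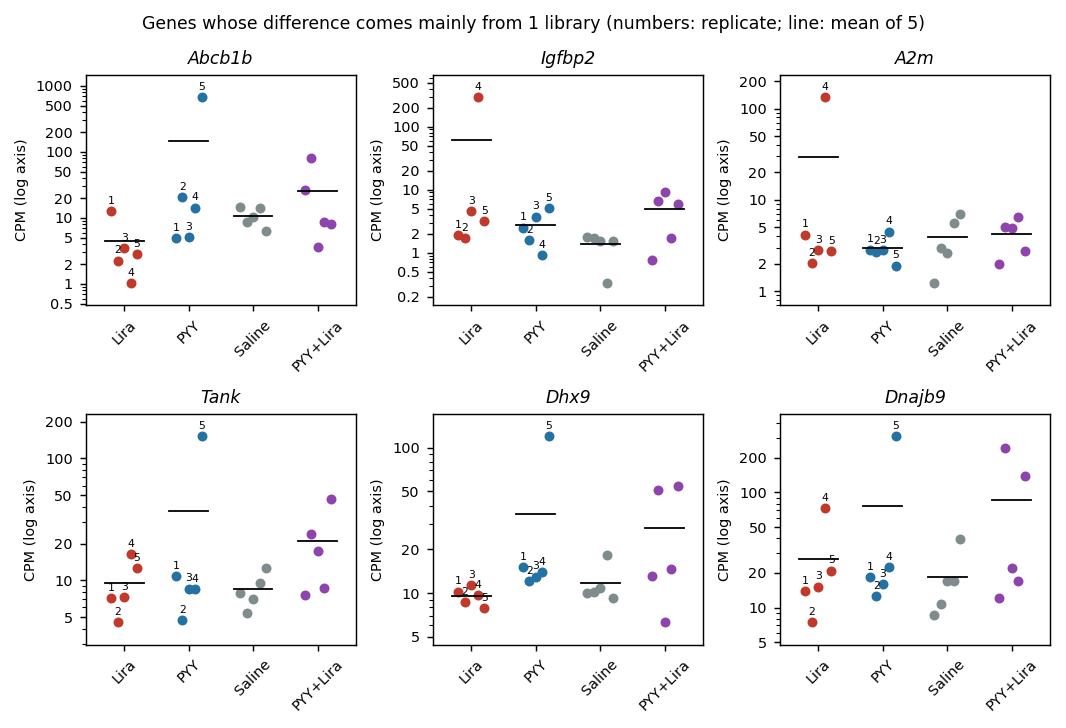
Level in CPM on log axes of 6 genes in each batch B library, with replicate numbers on the Lira and PYY points and a line at the mean of 5. PYY replicate 5 is the highest point of its group for Abcb1b (682 CPM), Tank, Dhx9 and Dnajb9, and Lira replicate 4 for Igfbp2 (296 CPM) and A2m (134 CPM).

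**Figure D5:**
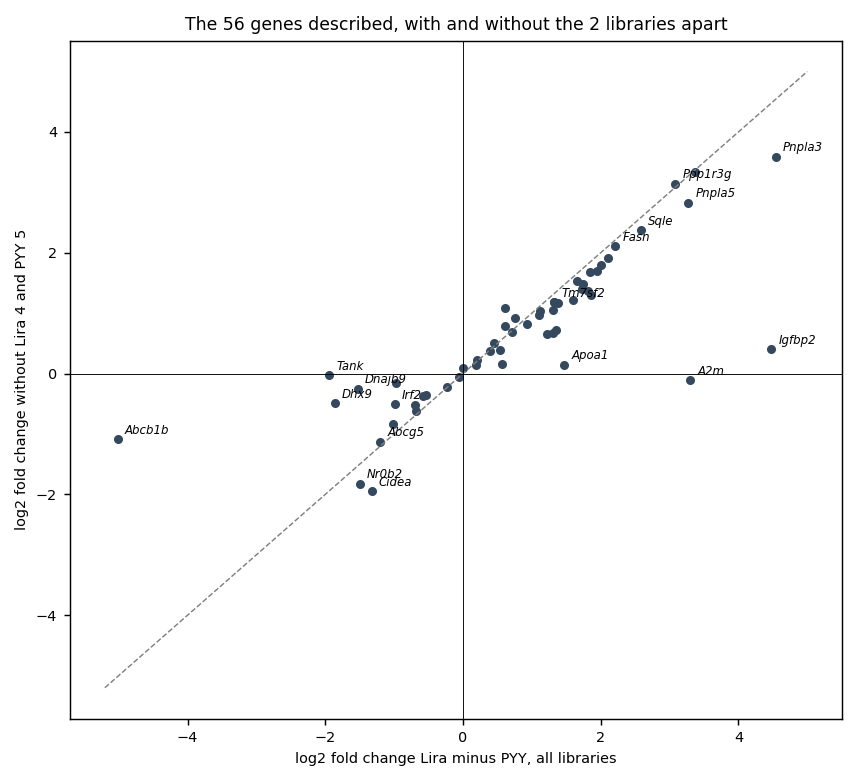
Log2 fold change, liraglutide minus PYY3-36, of the 56 genes described, in all libraries (horizontal axis) and without liraglutide replicate 4 and PYY3-36 replicate 5 (vertical axis), with a dashed line of equal values. Abcb1b, Igfbp2, A2m, Tank and Apoa1 leave the line towards 0, while Sqle (2.58 and 2.37), Fasn (2.21 and 2.11) and Ppp1r3g stay near it.

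Fgf21 and Il1b, genes of metabolic stress and inflammation, had intervals that reached 0. Fgf21, a fasting and stress hormone of the liver, was at 11.7, 16, 18.9, 19.9 and 6.14 CPM against 13.3, 13.4, 7.14, 13.8 and 1.06 CPM (log2 fold change 0.57, 95% interval -0.78 to 1.92, and 0.29 without PYY3-36 replicate 5). Il1b, a cytokine of activated macrophages, was at 7.58, 7.7, 5.86, 11 and 10 CPM against 3.32, 4.53, 3.73, 3.06 and 12.9 CPM, a log2 fold change of 0.62 ± 0.31 (SE) and 1.19 without PYY3-36 replicate 5, the highest library of its group. Tnf, at counts of 0 to 5 in the 10 libraries, was too low to be tested.

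Most markers of macrophages, lymphocytes and blood had positive log2 fold changes, and none passed the adjusted threshold. Of 14 tested Kupffer cell and macrophage markers 13 had a positive log2 fold change (median 0.47). An unadjusted p under 0.05 was reached by 3, all positive (2.67% of all genes), and 0 had separate groups. Their summed level was 378.9 to 623.4 CPM in the liraglutide libraries and 252.8 to 502.5 CPM in the PYY3-36 libraries, with 322.4 to 568.6 CPM in saline. Cd163, a scavenger receptor of macrophages, was at 31.5, 34, 21.4, 28.1 and 28.3 CPM against 21.8, 13.8, 16.7, 15.1 and 26.9 CPM (log2 fold change 0.61, edgeR adjusted p = 0.872), and Clec4f, a lectin of rodent Kupffer cells, had a log2 fold change of 0.72. All 11 tested T and NK cell markers were positive with a median of 0.40, at summed levels of 34.1 to 49.1 CPM against 26.6 to 35.4 CPM. All 8 B and plasma cell markers were positive too (median 0.64, and 0.35 without liraglutide replicate 2), with 0 at an unadjusted p under 0.05 and summed levels of 4.29 to 19.3 CPM against 2.68 to 8.51 CPM. The 9 tested blood markers were all positive (median 0.56), with summed levels of 424 to 2899 CPM against 551 to 1250.2 CPM, and without liraglutide replicate 5, the library with the highest sum, their median was 0.06 with 5 positive. Smaller medians were found for stellate cells and fibroblasts (0.20, 9 of 13 positive), sinusoidal endothelium (0.19, 8 of 10) and cholangiocytes (0.19, 8 of 10). Lists with few tested members varied. Mesothelium markers had the largest median (1.27, 4 of 5 positive), at summed levels of only 1.21 to 5.09 CPM against 0.27 to 2.54 CPM. Among them 1 had separate groups (0.285% of all genes). Neutrophil markers had 3 of 3 positive (0.41), adipocyte markers 2 of 3 (0.14) and pancreas markers 1 of 3 (-0.03). The 1 tested skeletal muscle marker was at 0.77. The hepatocyte markers had 6 of 10 positive and a median of 0.04. The part of these marker shifts in the results on other genes was not tested.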

How the data were processed

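Liver RNA was sequenced from 69 libraries. Per the labels and the study's methods the authors trimmed reads with cutadapt 2.5, aligned them with STAR 2.7.2b to Rnor_6.0 (RefSeq annotation) and counted them per gene with featureCounts 1.6.4 on the reverse strand. The deposited values are estimated counts, since reads with several hits or genes were split into fractions (15.9% of values were not whole), and were rounded here. Of the genes described, Scd, A2m, Fdps, Abcb1b, Mvd, Hlf, Cyp51 and Nfe2l2 had fractional counts in most of the 10 libraries, so part of their reads is shared with other features.

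edgeR 4.0.16 (R 4.3.3) fitted 55 libraries of 6 groups with group and batch as terms, TMM scaling, the edgeR filter on low counts (16508 of 38513 genes kept) and robust quasi-likelihood dispersions. Liraglutide was contrasted with PYY3-36, and p-values were adjusted by Benjamini-Hochberg over all genes, called at 0.05. CPM values are TMM-scaled. The fit was also run on simulated counts, drawn with its own dispersion estimates and without libraries that lie apart. That run cannot show how the fit handles such libraries. Members and gene lists were chosen with earlier results of these data known. Genes were named where they had 1 of the 10 smallest p in a direction (average log2 CPM of at least 1), 1 of the 2 smallest p of a pathway list, or were of prior interest. Further list members were described for their separate groups or as counter-examples, after their values were seen, and some items are not reported here. Alternatives used DESeq2 1.42.0, limma 3.58.1, other scaling, filters, libraries and a replicate block.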

Additional observations from a re-analysis of the deposited data

Results flagged for a closer look

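Groups of 5 values were examined for the genes described, on the log2 CPM scale, and for 7 library properties, in each treatment. Of these 126 groups, 18 held a library whose gap to its nearest neighbour exceeded Dixon's 95% critical value (0.71 of the range). The levels below are printed in CPM, where the gaps differ. Chance alone flags about 5% of groups taken at random, a rate that does not apply to these genes, since several were named for a small p that rested on 1 of these libraries and the groups share the same 10 libraries. Liraglutide replicate 4 was that library in 6, PYY3-36 replicate 5 in 10 and PYY3-36 replicate 1 in 2.

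Liraglutide replicate 4 was the highest of its group for Igfbp2 (296 CPM, others 1.68 to 4.6), A2m (134 CPM, others 2.01 to 4.16), Fabp5 (77.5 CPM, others 21.3 to 25.6) and Apoa1 (20675 CPM, others 1706 to 3380), and the lowest for Clec4f (68.7 CPM, others 111 to 134) and the cytochrome gene Cyp2c23 (333 CPM, others from 823).

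PYY3-36 replicate 5 was the highest of its group for Abcb1b (682 CPM, others 5.01 to 20.9), Tank (152 CPM, others 4.69 to 10.9), Dhx9 (120 CPM, others 12.1 to 15.1), Dnajb9 (309 CPM, others 12.5 to 22.3), Irf2 (56.7 CPM, others 20.8 to 25.8), Il1b (12.9 CPM, others 3.06 to 4.53) and Nfe2l2, the NRF2 regulator (666 CPM, others 87.7 to 128). It was the lowest for Fgf21 (1.06 CPM, others 7.14 to 13.8). It also stood out on the first principal component (151.5). Its root-mean-square distance from the mean of the rest of its group was 1.556 on the log2 scale (others 0.6367 to 0.652). PYY3-36 replicate 1 was the highest of its group for Msmo1 (23.8 CPM, others 15 to 16.7) and Fads2 (309 CPM, others 95 to 133).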

How the results depend on the processing

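With edgeR the count of called genes was 0 in each edgeR setting except the fit of all 69 libraries, which called 1 (Abcb1b, adjusted p = 0.0429). DESeq2 called 4 and limma-voom with quality weights 1. The count at an unadjusted p under 0.05 (861) was 1378 with no filter on low counts, 519 with no batch term, 391 in batch B alone, 205 in the 10 libraries alone and 438 without liraglutide replicate 4 and PYY3-36 replicate 5. Leaving out 1 library at a time gave 764 to 1655 genes, the highest without PYY3-36 replicate 5 (1332 positive), and 0 to 0 calls. Liraglutide against saline had 1 call, and 0 in batch B alone.

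The median of cholesterol synthesis stayed between 0.73 and 0.95 when 1 library was left out, and was 0.52 with the shrunken fold changes of DESeq2. The median of fatty acid synthesis was 0.27 with DESeq2 and 0.29 to 0.75 when 1 library was left out.

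For the 56 genes described, 1210 of 1229 alternative values kept direction and side of the threshold, 15 turned sign and 4 passed the threshold. With limma-voom Srebf1 was at -0.024, Gcgr at -0.057 and Tank at 0.0064, and without both libraries A2m at -0.11. Leaving out 1 library gave -0.22 to 0.39 for Scd, -0.035 to 0.42 for Plin2, -2.19 to 0.24 for Tank, -2.36 to 0.59 for Dnajb9, -0.20 to 0.35 for Gcgr, -0.15 to 0.061 for Dpp4 and -1.18 to 0.064 for Nfe2l2. The cause was not tested. The replicate numbers did not pair the libraries (same-number correlations of -0.54 to 0.44, own number best in 1 of 5), and the replicate block in the 10 libraries alone gave 129 genes at an unadjusted p under 0.05 and 0 calls.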

Other observations

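The lists of the early stress response and of detoxification were not counted above. Of 22 tested immediate early and heat shock genes 15 had a positive log2 fold change (median 0.23) and 4 an unadjusted p under 0.05, all positive (2.67% of all genes). Without liraglutide replicate 4 the median was 0.007, with 11 positive and 2 at that p (2.31% of all genes). Without the pair of libraries that lay apart 1 was at that p (1.91% of all genes). Fos, an early response transcription factor, was at 3.87, 4.66, 2.27, 5.18 and 1.17 CPM in the liraglutide libraries and 0.677, 1.09, 1.21, 1.53 and 0.564 CPM in the PYY3-36 libraries (log2 fold change 1.73 ± 0.67, SE). Only liraglutide replicate 5 lay within the PYY3-36 range. Fosb, its relative, was at or near 0 in most libraries and reached 2.31 CPM in liraglutide replicate 1. The stress regulator Nupr1 was at 65.9, 74.3, 56.8, 198 and 43.8 CPM against 60.6, 30.7, 19.6, 36.1 and 24.4 CPM (log2 fold change 1.35, 0.83 without liraglutide replicate 4), and the leptin receptor gene Lepr at 0.925, 1.16, 2.43, 6.22 and 1.76 CPM against 1.15, 0.971, 0.841, 1.07 and 1.27 CPM (log2 fold change 1.23, 0.60 without liraglutide replicate 4).

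Targets of the xenobiotic receptors CAR, PXR and the aryl hydrocarbon receptor had 6 of 28 members with a positive log2 fold change (median -0.23), and 4 members had an unadjusted p under 0.05, all negative (2.54% of all genes). The list holds Abcb1b, whose level in PYY3-36 replicate 5 is given above. Without that library the median was -0.09, with 11 of 29 positive. In that setting 2 members were at that p in the positive and 4 in the negative direction (1332 and 323 of all 16681 genes). Cyp2c23, an arachidonic acid epoxygenase, was at 989, 1026, 1176, 333 and 823 CPM against 1547, 1252, 1363, 1095 and 1248 CPM (log2 fold change -0.58 ± 0.21, SE, and -0.36 without liraglutide replicate 4). Glutathione and NRF2 targets had 6 of 22 positive (median -0.32, -0.10 without liraglutide replicate 4 and -0.11 without PYY3-36 replicate 5 or with limma-voom). Among them Gclc, the catalytic subunit of glutathione synthesis, was at 36.9, 32.7, 41.1, 86.7 and 46.3 CPM against 48.4, 52, 45.5, 80.6 and 168 CPM, and its log2 fold change of -0.69 was -0.22 without PYY3-36 replicate 5. Cytosolic ribosomal protein genes had 86 of 93 members with a positive log2 fold change (median 0.30), 15 with an unadjusted p under 0.05 (2.67% of all genes) and 0 with separate groups. Without liraglutide replicate 4 the median was 0.06 with 60 positive and 0 at that p in the positive direction (2.31% of all genes). Without PYY3-36 replicate 5 there were 44 in that direction, where the share of all genes was 7.99%. In batch B alone 3 were at that p, and 0 in the 10 libraries alone. In the edgeR fit of 55 libraries none of the genes of these lists passed the adjusted threshold.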
